A study of Homo sapiens with 6 samples.

Results

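The endosomal sorting machinery was followed here in PANC-1, a cell line long established from a human pancreatic cancer, through the sorting nexins (SNX), the vacuolar protein sorting genes (VPS), the ESCRT genes and the subunits of the adaptor complexes AP-1 to AP-4. Members were taken by name, namely every array symbol that begins with SNX, VPS or CHMP and a number, the symbols STAM, STAM2, HGS and TSG101, and the symbols of the AP subunits. This gave 164 probes and 102 symbols, which stand for 101 genes of the 30561 named on the array, since the symbols VPS26 and VPS26A are the same gene. The older symbols VPS24, SNX26 and AP1GBP1 are now CHMP3, ARHGAP33 and SYNRG. The study compared cells given a small interfering RNA against the orphan nuclear receptor NR4A1 (siNR4A1, spelled siTR4A1 in the sample titles, 3 arrays) with cells given a control small interfering RNA (siControl, 3 arrays). Biotin-labelled cRNA made from total RNA was read on Illumina BeadChips. All 6 arrays come from this 1 cell line, and the time, dose and sequence of the small interfering RNAs were not stated. Whether replicates were separate cultures is not said in the labels; each p-value therefore reflects the spread between the arrays alone, which may be technical.

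Endosomes sort membrane proteins between degradation and reuse. Receptors tagged with ubiquitin are handed through the ESCRT complexes, which fold the endosomal membrane inward into vesicles bound for the lysosome, while retromer and sorting nexins pull other cargo into tubules that return to the plasma membrane or the Golgi. Adaptor complexes pick cargo for coated vesicles at the Golgi, the plasma membrane and the endosome, and tethering complexes with VPS subunits bring the resulting vesicles to their target.

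Across the series, 19056 to 19329 probes were detected on the siNR4A1 arrays and 18173 to 20466 on the siControl arrays, where detected means above the 95% point of the background of that array. The mean signal ran from 439 to 520 on the siNR4A1 arrays and from 332 to 623 on the siControl arrays, with siControl replicate 3 the brightest of the 6. NR4A1 itself was below detection on every array with each of its 3 probes, at signals of 88.2 to 114 in siNR4A1 and 73.3 to 117 in siControl, so these arrays do not check the knockdown. Of 8 genes chosen to check the label, KRT8, KRT18, EPCAM and VIM, which this epithelial line is known to express, were detected. KRT19 was close to background, detected on 2 siNR4A1 and 3 siControl arrays, and KRT7 did not pass the filter on dim probes. S100A6 and ANXA2 were detected too. S100A6 differed by 0.41 ± 0.15 (SE) without passing, and ANXA2 fell by 0.38 ± 0.11 (SE, limma, adjusted p = 0.0185). Of 22 markers of leukocytes, endothelium, fibroblasts, acinar, islet and erythroid cells 6 could be tested, and CD68, CD14 and HBA1 rose. The leukocyte marker LYZ and the fibroblast markers COL1A2 and COL1A1 differed by -0.08, -0.08 and 0.17, and none of them passed. PTPRC, CD3E, PECAM1, CDH5, PRSS1 and INS did not pass the filter on dim probes. The summed normalized intensity of the 34 marker probes was 8408 to 9089 in siNR4A1 and 6493 to 6883 in siControl. Only 7 to 10 of these probes were detected on any 1 array. CD68, with a mean log2 intensity of 12.12 in siNR4A1 and 11.54 in siControl, was by far the brightest tested marker and weighs most in the sum. The part of this sum in the results below was not tested.

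Of the 101 genes, 92 passed the filter on dim probes (detected on at least 3 of 6 arrays) and were tested. The 9 that did not, each detected on 0 to 2 arrays, were SNX9, SNX18, SNX20, SNX31, SNX32, VPS13D, VPS53, AP3B2 and AP4S1. Of the 92, 25 changed, 14 rising and 11 falling in siNR4A1 (limma, Benjamini-Hochberg adjusted p under 0.05 over all 13721 genes tested). That is 27.2% of the tested members, beside 19.5% of all genes tested. By direction it is 15.2% rising, beside 10.8% of all genes, and 12.0% falling, beside 8.69%. The groups did not overlap for 35 members or 38.0%, beside 35.4% of all genes, and that includes all 25 that changed. The median log2 change was 0.04 over the members and 0.02 over all genes tested, and its median size regardless of sign was 0.17 in both. Of the calls, 3 rises (SNX24, AP1S2 and SNX2) and 3 falls (CHMP4B, SNX12 and VPS54) reached 1.5-fold; over all genes 2.41% rose and 2.63% fell by that much.

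The calls differ in whether they held with fewer arrays. With 1 of the 6 arrays left out in turn, 8 calls held each time, those of CHMP4B, SNX12, VPS54, VPS45, AP1G1, SNX2, AP1S2 and SNX24, while the other 17 were lost at least once, and the counts ran from 5 to 13 rising (fewest without siControl replicate 2 or siNR4A1 replicate 1) and from 6 to 10 falling (fewest without siNR4A1 replicate 3). Over all genes tested the leave-out counts ran from 756 to 1629 rising and from 734 to 1238 falling, beside 1481 and 1193 with all arrays. In the leave-outs with the fewest members rising, 1112 (siControl replicate 2) and 1020 (siNR4A1 replicate 1) of all genes rose. A call can be lost with fewer arrays while its value moves little. That of VPS26B was lost in all 6 leave-outs at 0.29 to 0.36, beside 0.32 with all arrays. The largest relative shifts were those of AP2B1 (-0.562 to -0.345) and SNX12 (-0.768 to -0.441), both without siControl replicate 2. All 25 kept their sign under every setting tried. When only the array medians were made equal, 0 members passed in limma, and neither did any of all 13721 genes tested. The median log2 change over all genes was then 0.13. An unadjusted p under 0.05 was seen there for 8 members and for 1088 of all genes. Under the other settings between 5 and 14 members rose and between 6 and 14 fell. Over all genes tested under each of those settings, 756 to 1643 rose and 564 to 1355 fell.

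**Figure D1:**
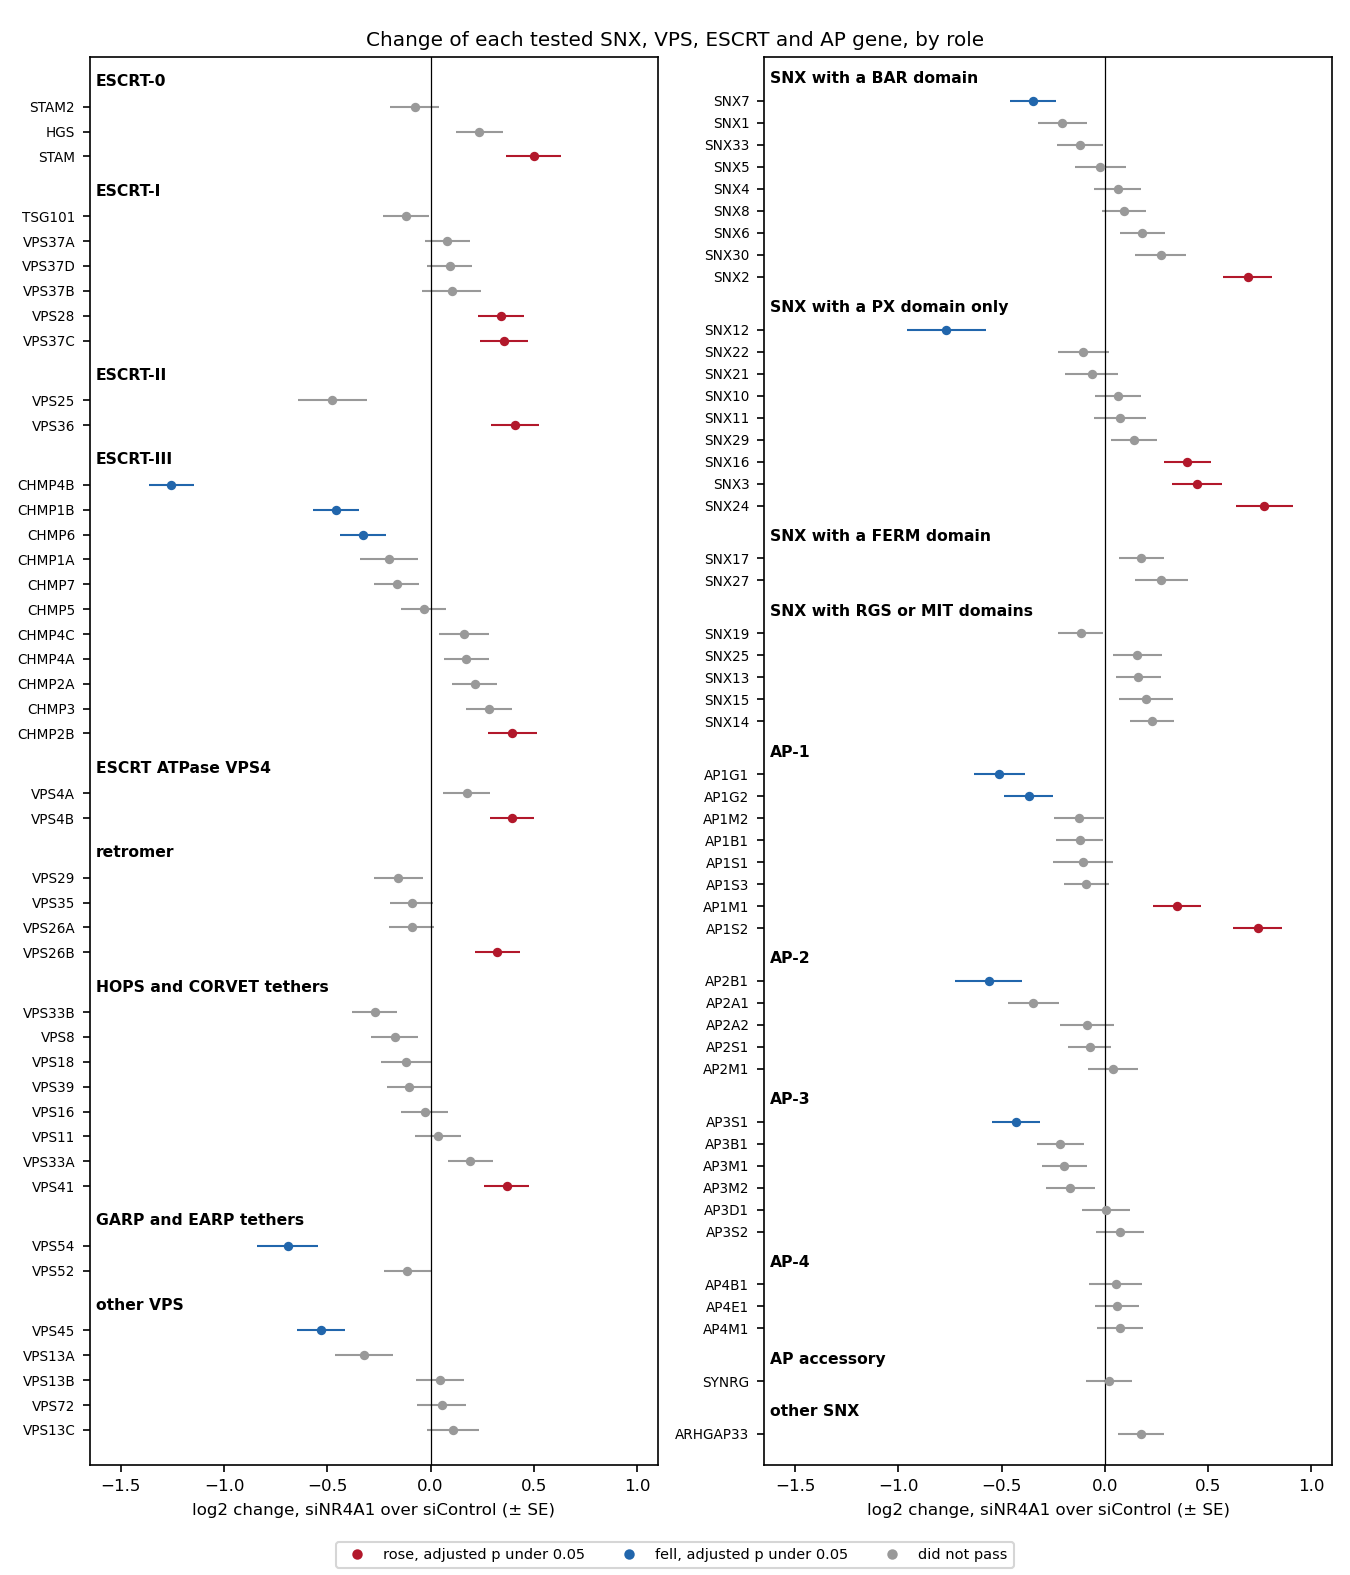
Log2 change (horizontal axis, siNR4A1 over siControl) of the 92 tested genes with its standard error as a bar, arranged down the page by role; red genes rose, blue genes fell and grey genes did not pass. The ESCRT-III genes run from -1.25 for CHMP4B to 0.40 for CHMP2B, and the AP-1 genes from -0.51 for AP1G1 to 0.74 for AP1S2.

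To set the largest changes beside the sequence in front of the gene, promoters of RefSeq (GRCh38.p14, from 250 bases before to 50 after the first listed start) were searched on both strands for 4 short motifs. These were AAAGGTCA, the monomer site of the NR4A receptors, GGGCGG, the GC box read by SP-family factors, CACGTG, the core of the element read by the lysosomal regulator TFEB, and CCAAT; none of them overlapped another in the sequences printed. A promoter was listed for 75 of the 101 genes, 10 that rose and 10 that fell among them. GGGCGG was present in 6 of 10 promoters of genes that rose and 7 of 10 of genes that fell, beside 71.1% of the promoters of all genes tested. CACGTG was present in 1 and 0 of them, beside 10.7%, and CCAAT in 3 and 1, beside 37.2%. AAAGGTCA was in 0 of 10 and 0 of 10, beside 0.72%, and the single member promoter that held it was that of VPS25, which did not pass the test. The 250 bases before the start are shown for the largest fall (CHMP4B), the 2 largest rises (SNX24 and AP1S2) and VPS25, 5′ to 3′ on the strand of the gene, with the motif letters in capitals on either strand.
CHMP4B, chr20:33811098-33811347, plus strand: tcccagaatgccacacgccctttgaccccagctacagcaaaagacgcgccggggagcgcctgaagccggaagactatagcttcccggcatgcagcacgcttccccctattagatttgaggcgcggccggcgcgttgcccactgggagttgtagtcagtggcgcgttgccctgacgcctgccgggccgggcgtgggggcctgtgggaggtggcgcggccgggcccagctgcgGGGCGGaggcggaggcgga
SNX24, chr5:122845363-122845612, plus strand: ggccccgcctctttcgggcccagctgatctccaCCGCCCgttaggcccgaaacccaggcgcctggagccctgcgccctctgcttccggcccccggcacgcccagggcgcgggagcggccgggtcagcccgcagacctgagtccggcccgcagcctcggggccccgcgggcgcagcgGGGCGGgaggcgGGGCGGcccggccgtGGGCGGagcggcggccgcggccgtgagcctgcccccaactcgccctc
AP1S2, chrX:15854814-15855063, minus strand: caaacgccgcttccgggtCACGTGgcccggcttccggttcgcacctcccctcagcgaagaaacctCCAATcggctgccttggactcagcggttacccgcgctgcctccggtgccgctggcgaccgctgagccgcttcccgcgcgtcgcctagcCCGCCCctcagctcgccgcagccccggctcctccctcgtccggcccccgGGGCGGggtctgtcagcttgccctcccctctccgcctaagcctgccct
VPS25, chr17:42773199-42773448, plus strand: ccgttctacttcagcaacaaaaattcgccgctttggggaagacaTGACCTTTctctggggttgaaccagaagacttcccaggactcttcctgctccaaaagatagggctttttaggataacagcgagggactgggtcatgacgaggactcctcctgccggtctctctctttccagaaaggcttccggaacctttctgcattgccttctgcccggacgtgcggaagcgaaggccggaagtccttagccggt
CHMP4B has 1 GC box, whose first letter lies 19 bases before the start, and SNX24 has 4, at 217, 74, 62 and 47 bases before it. AP1S2 carries CACGTG at 232, CCAAT at 185 and GC boxes at 97 and 48 bases before the start, and VPS25 carries the NR4A site at 206 bases, on the opposite strand. A match is a description of these letters and not of binding.

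The ESCRT genes changed in both directions. Of 24 tested genes 6 rose and 3 fell, or 37.5% changed, beside 19.5% of all genes. The 3 that fell, CHMP4B, CHMP1B and CHMP6, belong to ESCRT-III, the filament that cuts the neck of the vesicle. The 6 that rose were STAM of ESCRT-0, VPS28 and VPS37C of ESCRT-I, VPS36 of ESCRT-II, CHMP2B of ESCRT-III and the ATPase VPS4B, and the difference between the steps was not tested. Named ESCRT partners outside the name rule are given further below.

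CHMP4B, a subunit that polymerises into the filament, had the largest change of all members. Its log2 intensity was 7.13, 7.24 and 7.25 in siNR4A1, against 8.46, 8.58 and 8.34 in siControl. The lowest siControl array lay more than 1 log2 unit above the highest siNR4A1 array. On the log2 scale CHMP4B fell by 1.25 ± 0.11 (SE, 3 arrays in each group), or 2.39-fold (limma, adjusted p = 1.24e-06), and between -1.49 and -1.10 over the other settings. RefSeq lists a pseudogene copy of it, CHMP4BP1, and since the probe sequences were not used here, signal from the copy cannot be told apart. Its paralogs CHMP4A and CHMP4C, read by their own probes, differed by 0.17 ± 0.11 and 0.16 ± 0.12 (SE) and did not pass (adjusted p = 0.299 and 0.384, limma).

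CHMP1B, which recruits the microtubule-severing enzyme spastin, was at 8.07, 8.30 and 8.20 in siNR4A1, against 8.63, 8.56 and 8.76 in siControl. It fell by 0.46 ± 0.11 (SE; limma, adjusted p = 0.00838), and its paralog CHMP1A differed by -0.20 ± 0.14 (SE) without passing. The groups were apart for CHMP1B and overlapped for CHMP1A, whose siControl replicate 1 stood high at 9.85. CHMP6, which links ESCRT-II to the filament, was at 8.10, 8.31 and 8.16 in siNR4A1, against 8.41, 8.54 and 8.60 in siControl, and fell by 0.33 ± 0.11 (SE; limma, adjusted p = 0.0467). A second, dimmer probe of CHMP6 fell by 0.58 ± 0.14 (SE; limma over all probes, adjusted p = 0.00969). The call of CHMP1B was lost without siNR4A1 replicate 1 (-0.40), and that of CHMP6 in every leave-out except that of siControl replicate 1 (-0.39 to -0.285).

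CHMP2B, a late subunit that binds VPS4 and is mutated in a familial frontotemporal dementia, moved the other way. It was at 8.96, 9.0 and 9.05 in siNR4A1, against 8.64, 8.41 and 8.79 in siControl, and rose by 0.40 ± 0.12 (SE; limma, adjusted p = 0.0258). VPS4B, 1 of the 2 ATPases that take the filament apart, was at 9.42, 9.29 and 9.31 in siNR4A1, against 8.86, 8.95 and 9.02 in siControl. VPS4B rose by 0.40 ± 0.11 (SE; limma, adjusted p = 0.0166), while VPS4A, the other, differed by 0.18 ± 0.11 (SE, adjusted p = 0.310). Both late-acting genes thus had groups apart, and VPS4A did not. The call of CHMP2B was lost in every leave-out except that of siControl replicate 3 (0.29 to 0.42), and that of VPS4B without siControl replicate 1 (0.35) or siNR4A1 replicate 1 (0.36).

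Of the other ESCRT-III genes, CHMP2A, CHMP3, CHMP5 and CHMP7 did not pass either. CHMP5 gave different readings by probe: the brightest differed by -0.03 ± 0.11 (SE), and the other 2 fell by 0.52 ± 0.13 and 0.41 ± 0.13 (SE; limma over all probes, adjusted p = 0.0119 and 0.0494). For CHMP3 the brightest probe differed by 0.28 ± 0.11 (SE) without passing, and a second rose by 0.37 ± 0.11 (SE; limma over all probes, adjusted p = 0.0303). The 3 CHMP2A probes stood at 0.21, 0.17 and -0.03, none of them passing, and CHMP7 was detected on 1 siNR4A1 and 3 siControl arrays.

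STAM, which with HGS catches ubiquitinated cargo on the early endosome, was at 9.66, 9.67 and 9.54 in siNR4A1, against 9.39, 8.82 and 9.16 in siControl, and rose by 0.50 ± 0.13 (SE; limma, adjusted p = 0.0141). Its siControl values were the more spread out (SD 0.29 against 0.07 in siNR4A1), and without siControl replicate 2, the lowest, the difference was 0.35 and did not pass. The paralog STAM2 differed by -0.08 ± 0.12 (SE) and HGS by 0.24 ± 0.11 (SE), and neither passed.

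VPS37C, 1 of 4 alternative VPS37 subunits of ESCRT-I, was at 10.29, 10.45 and 10.34 in siNR4A1, against 9.80, 10.14 and 10.07 in siControl, and rose by 0.36 ± 0.12 (SE; limma, adjusted p = 0.0412). VPS28, another core subunit, was at 9.08, 9.25 and 9.07 in siNR4A1, against 8.91, 8.69 and 8.79 in siControl, and rose by 0.34 ± 0.11 (SE; limma, adjusted p = 0.0412). A second VPS28 probe differed by only 0.06 ± 0.13 (SE), neither probe passed when adjusted over all probes, and the mean of the probes, 0.20, did not pass. TSG101, which binds the ubiquitin tag, VPS37A, VPS37B and VPS37D differed by -0.12 to 0.10, and none of these 4 passed. The VPS28 call was lost in every leave-out except that of siControl replicate 1 (0.28 to 0.37), and that of VPS37C without siControl replicate 1 (0.26) or siNR4A1 replicate 1 (0.39), 2 (0.31) or 3 (0.37).

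The ESCRT-II subunits went in opposite directions. VPS36, which binds ubiquitin and membrane lipid, was at 8.70, 8.60 and 8.70 in siNR4A1, against 8.34, 8.04 and 8.38 in siControl, and rose by 0.41 ± 0.12 (SE; limma, adjusted p = 0.0207). VPS25, the subunit that contacts CHMP6, was at 8.65, 8.55 and 8.41 in siNR4A1, against 9.03, 9.46 and 8.55 in siControl. These VPS25 groups overlapped, siControl replicate 3 lying below siNR4A1 replicate 1, and its difference of -0.48 ± 0.17 (SE) missed the threshold (limma, adjusted p = 0.0542), although its second probe fell by 0.41 ± 0.12 (SE; limma over all probes, adjusted p = 0.0361). SNF8, the remaining subunit, which the name rule does not take, was at 9.21, 9.90 and 9.78 in siNR4A1, against 10.45, 10.24 and 10.14 in siControl, and fell by 0.65 ± 0.15 (SE; limma, adjusted p = 0.00654). The VPS36 call was lost without siControl replicate 2 (0.305) or siNR4A1 replicate 1 or 3 (0.39 each), while that of SNF8 held in all 6 leave-outs. Both calls were lost with medians of detected probes equalized.

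**Figure D2:**
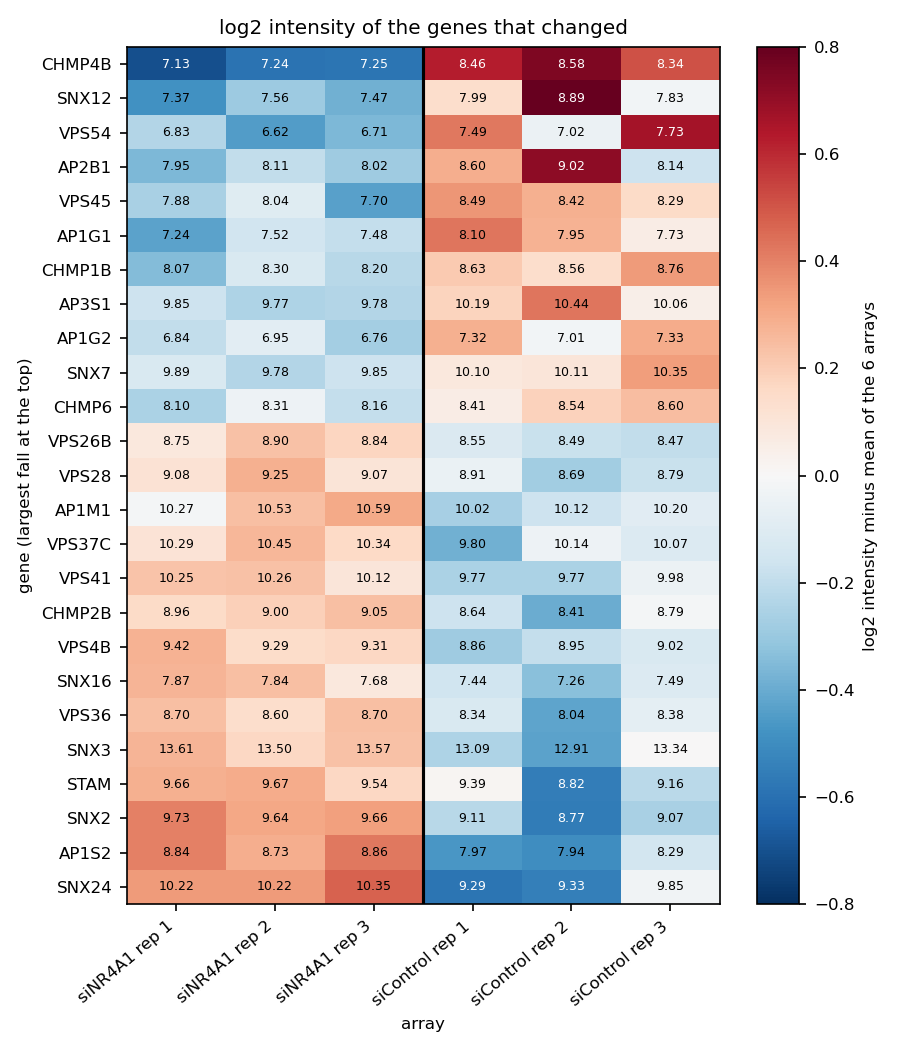
Log2 intensity of the 25 genes that changed (rows, largest fall at the top) on each array (columns, siNR4A1 left of siControl), printed in each cell; the colour is the value minus the mean of the gene over the 6 arrays. Every gene has its 3 siNR4A1 values on one side of its 3 siControl values, from CHMP4B at the top to SNX24 at the bottom.

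Retromer, the coat that lifts cargo out of endosomes, consists of VPS35, VPS29 and a VPS26 paralog. VPS26B was at 8.75, 8.90 and 8.84 in siNR4A1, against 8.55, 8.49 and 8.47 in siControl, and rose by 0.32 ± 0.11 (SE; limma, adjusted p = 0.0413). VPS26A differed by -0.09 ± 0.11, VPS35 by -0.09 ± 0.11 and VPS29 by -0.16 ± 0.12 (SE), with 95% intervals that reach from -0.32 to 0.14, from -0.32 to 0.13 and from -0.41 to 0.09. Of the 4 genes only VPS26B passed, and its call was lost in each of the 6 leave-outs (0.29 to 0.36). RefSeq lists a pseudogene copy, VPS26BP1.

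Sorting nexins share a PX domain that binds phosphoinositides, and the classes with a BAR domain also bend membrane. Of 26 tested, 4 rose and 2 fell, or 23.1% changed, beside 19.5% of all genes. The genes that rose were SNX24, SNX2, SNX3 and SNX16, and those that fell were SNX12 and SNX7. The median log2 change of the 26 was 0.15, beside 0.02 over all genes. Whatever their test, 18 of the 26 were higher in siNR4A1, beside 7350 of all 13721 genes tested.

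SNX2, which pairs with SNX5 or SNX6 in the coat that exports cargo from endosomes, was at 9.73, 9.64 and 9.66 in siNR4A1, against 9.11, 8.77 and 9.07 in siControl. It rose by 0.69 ± 0.12 (SE), or 1.61-fold (limma, adjusted p = 0.000615), and RefSeq lists the pseudogene copies SNX2P1 and SNX2P2. Its partners SNX5 and SNX6 differed by -0.02 ± 0.12 and 0.18 ± 0.11 (SE), and its relative SNX1 by -0.21 ± 0.12 (SE); none of the 3 passed. SNX7, which forms dimers with SNX4 in the autophagy-related pathway, was at 9.89, 9.78 and 9.85 in siNR4A1, against 10.10, 10.11 and 10.35 in siControl, and fell by 0.35 ± 0.11 (SE; limma, adjusted p = 0.0390). All 3 kept SNX7 probes fell, the other 2 by 0.62 ± 0.12 and 0.48 ± 0.12 (SE). The call of the brightest SNX7 probe was lost without siControl replicate 3 (-0.26) or siNR4A1 replicate 1 (-0.37), 2 (-0.32) or 3 (-0.35).

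Among the nexins with a PX domain only, SNX24 had the largest rise of all members. It was at 10.22, 10.22 and 10.35 in siNR4A1, against 9.29, 9.33 and 9.85 in siControl, and rose by 0.77 ± 0.14 (SE), or 1.71-fold (limma, adjusted p = 0.000902). SiControl replicate 3 stood between the other 2 siControl arrays and the siNR4A1 arrays, and a dimmer second probe of SNX24 differed by 0.20 ± 0.11 (SE) without passing. With the mean of its probes the SNX24 value was 0.49 and still passed.

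SNX3 and SNX12 are close relatives, and SNX3 is known as the partner of retromer in the recycling of the Wnt carrier Wntless. SNX3 was at 13.61, 13.50 and 13.57 in siNR4A1, against 13.09, 12.91 and 13.34 in siControl, and rose by 0.45 ± 0.12 (SE; limma, adjusted p = 0.0166). SNX12 was at 7.37, 7.56 and 7.47 in siNR4A1, against 7.99, 8.89 and 7.83 in siControl, and fell by 0.77 ± 0.19 (SE), or 1.70-fold (limma, adjusted p = 0.00985). The pair thus moved in opposite directions, and the size for SNX12 owed much to siControl replicate 2: without it the change was -0.44 and still passed. A second, dim SNX3 probe differed by -0.05 ± 0.11 (SE), and the SNX3 call was lost without siControl replicate 2 (0.34) or siNR4A1 replicate 1 (0.42) or 3 (0.44) and with the mean of its probes (0.20).

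SNX16, a nexin of early and late endosomes, was at 7.87, 7.84 and 7.68 in siNR4A1, against 7.44, 7.26 and 7.49 in siControl, and rose by 0.40 ± 0.11 (SE; limma, adjusted p = 0.0194). Its second probe, close to background, differed by -0.04 ± 0.12 (SE), and the call was lost without siControl replicate 2 (0.33) or siNR4A1 replicate 1 (0.36) or 2 (0.38) and with the mean of its probes (0.18). None of the nexins with a FERM, RGS or MIT domain passed. SNX27, which carries a PDZ domain and hands receptors to retromer, differed by 0.27 ± 0.13 (SE, limma, adjusted p = 0.150). SNX14 differed by 0.23 ± 0.11 (SE, limma, adjusted p = 0.146), and ARHGAP33 by 0.18 ± 0.11 (SE, limma, adjusted p = 0.301).

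**Figure D3:**
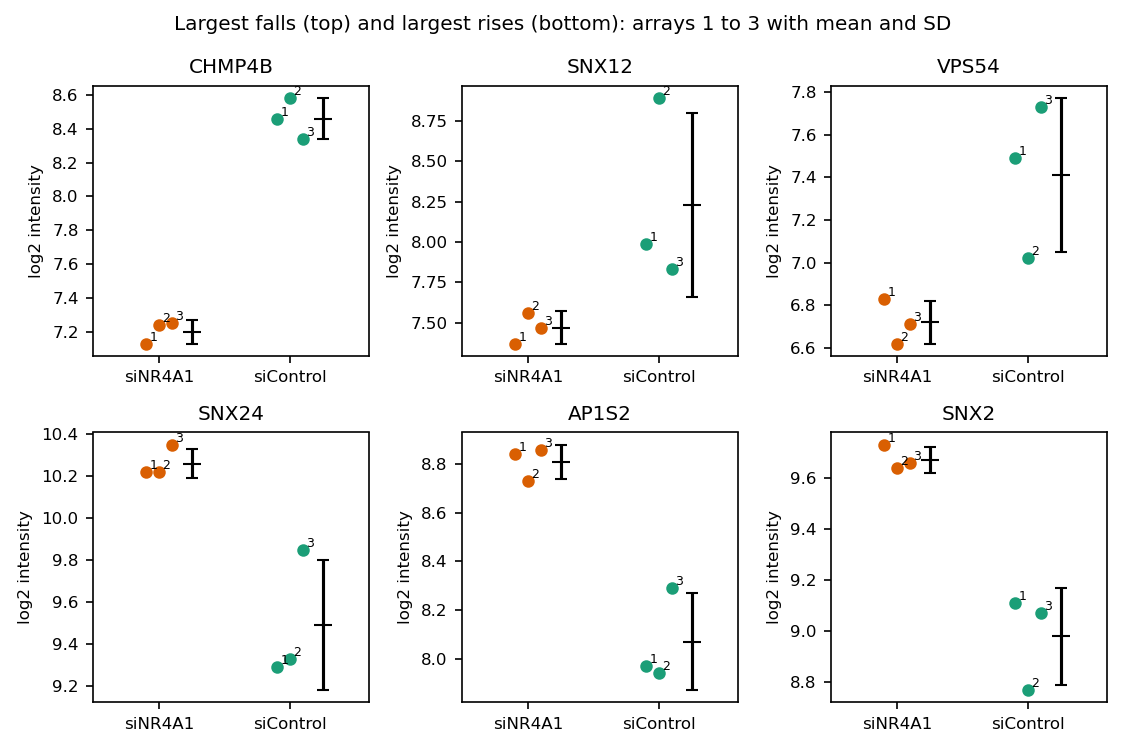
Log2 intensity (vertical axis, each panel with its own range) of the 3 largest falls (top row) and the 3 largest rises (bottom row) in siNR4A1 (orange, left) and siControl (green, right), with replicate numbers and, in black, the mean and SD of 3 arrays. CHMP4B averages 7.20 in siNR4A1 and 8.46 in siControl with little spread, while SNX12 has 1 siControl array at 8.89.

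VPS tethers bring vesicles to their target membrane, HOPS and CORVET at the endosome and lysosome and GARP at the Golgi. Of 10 tested, 1 rose and 1 fell, or 20% changed, beside 19.5% of all genes. VPS54, a GARP subunit whose mouse gene is mutated in the wobbler model of motor neuron disease, was at 6.83, 6.62 and 6.71 in siNR4A1, against 7.49, 7.02 and 7.73 in siControl. It fell by 0.69 ± 0.15 (SE), or 1.61-fold (limma, adjusted p = 0.00359), and its second probe fell by 0.43 ± 0.11 (SE). Both VPS54 probes were close to background in siNR4A1. Their signals were 135.5, 139 and 148.2, and 109.4, 135.5 and 130.5 for the second, beside detection points of 106.6, 121.7 and 124.8. VPS52 of the same complex differed by -0.11 ± 0.12 (SE), and VPS53, detected on 1 array, did not pass the filter.

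VPS41, a HOPS subunit, had 4 kept probes that disagreed. The brightest was at 10.25, 10.26 and 10.12 in siNR4A1, against 9.77, 9.77 and 9.98 in siControl, and rose by 0.37 ± 0.11 (SE; limma, adjusted p = 0.0281). The other 3 differed by 0.30, 0.02 and -0.41, none of them passed, and the mean of the 4 was 0.07. The VPS41 call was also lost in every leave-out except that of siControl replicate 3 (0.33 to 0.41). VPS33B was grouped here with the HOPS and CORVET genes, though it is not a subunit of either complex. It had the largest difference among the others of that group, at -0.27 ± 0.11 (SE) with groups apart, and did not pass (limma, adjusted p = 0.0922).

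VPS45, which guides SNARE pairing on the route from endosome to Golgi, was at 7.88, 8.04 and 7.70 in siNR4A1, against 8.49, 8.42 and 8.29 in siControl. VPS45 fell by 0.53 ± 0.12 (SE; limma, adjusted p = 0.00479), with the highest siNR4A1 array below the lowest siControl array. The lipid-transfer genes VPS13A, VPS13B and VPS13C differed by -0.32 ± 0.14, 0.05 ± 0.12 and 0.11 ± 0.12 (SE), and none passed. VPS72, which shares the name but encodes a chromatin-remodelling subunit, differed by 0.06 ± 0.12 (SE) without passing.

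The adaptor complexes each have 2 large subunits, a medium subunit and a small one. Of 22 tested AP-1 to AP-4 genes 2 rose and 4 fell, or 27.3% changed, beside 19.5% of all genes. Whatever their test, 14 of the 22 were lower in siNR4A1, beside 6371 of all 13721 genes tested. AP-1, which works between Golgi and endosome, had 4 of 8 genes change, or 50%, beside 19.5% of all genes, with 2 in each direction.

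AP1S2, the small subunit sigma-1B, was at 8.84, 8.73 and 8.86 in siNR4A1, against 7.97, 7.94 and 8.29 in siControl. It rose by 0.74 ± 0.12 (SE), or 1.67-fold (limma, adjusted p = 0.000401), and its second probe rose by 0.52 ± 0.15 (SE). The other small subunits AP1S1 and AP1S3 differed by -0.10 ± 0.15 and -0.09 ± 0.11 (SE) and did not pass; RefSeq lists a pseudogene copy, AP1S2P1. AP1M1, the ubiquitous medium subunit, was at 10.27, 10.53 and 10.59 in siNR4A1, against 10.02, 10.12 and 10.20 in siControl, and rose by 0.35 ± 0.12 (SE; limma, adjusted p = 0.0432). Its epithelial paralog AP1M2 differed by -0.13 ± 0.12 (SE) without passing. The AP1M1 call was lost without siControl replicate 1 (0.30) or 2 (0.36) or siNR4A1 replicate 2 (0.32) or 3 (0.29).

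Both gamma subunits, the large chains that define AP-1, fell. AP1G1 was at 7.24, 7.52 and 7.48 in siNR4A1, against 8.10, 7.95 and 7.73 in siControl, and fell by 0.51 ± 0.12 (SE; limma, adjusted p = 0.00779). AP1G2 was at 6.84, 6.95 and 6.76 in siNR4A1, against 7.32, 7.01 and 7.33 in siControl, and fell by 0.37 ± 0.12 (SE; limma, adjusted p = 0.0374). For AP1G2 the gap between the groups was narrow, and RefSeq lists an antisense gene, AP1G2-AS1, at this locus by name. A second AP1G1 probe differed by -0.31 ± 0.12 (SE) without passing, and the AP1G2 call was lost in every leave-out except that of siControl replicate 2 (-0.42 to -0.315).

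In AP-2, the adaptor of clathrin-mediated endocytosis at the plasma membrane, 1 of 5 genes fell, or 20% changed, beside 19.5% of all genes. AP2B1, its beta subunit, was at 7.95, 8.11 and 8.02 in siNR4A1, against 8.60, 9.02 and 8.14 in siControl, and fell by 0.56 ± 0.16 (SE; limma, adjusted p = 0.0225). SiControl replicate 3 lay only just above the siNR4A1 arrays, and a second probe differed by -0.16 ± 0.12 (SE) without passing. The call was lost without siControl replicate 1 (-0.55) or 2 (-0.345) or siNR4A1 replicate 1 (-0.52) or 3 (-0.56), and with the mean of its probes the change was -0.36 and passed. RefSeq lists a pseudogene copy of AP2B1, AP2B1P1. AP2A1 differed by -0.35 ± 0.12 (SE) with groups apart and missed the threshold (limma, adjusted p = 0.0585). The AP2M1 probes differed from each other, with 0.04 ± 0.12 (SE) for the brighter, which did not pass, and a rise of 0.36 ± 0.11 (SE; limma over all probes, adjusted p = 0.0383) for the dimmer.

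In AP-3, which sends cargo to lysosomes and related organelles, 1 of 6 tested genes fell, or 16.7% changed, beside 19.5% of all genes. AP3S1, a small subunit with 3 pseudogene copies listed by name, was at 9.85, 9.77 and 9.78 in siNR4A1, against 10.19, 10.44 and 10.06 in siControl. AP3S1 fell by 0.43 ± 0.12 (SE, limma, adjusted p = 0.0167), and the call was lost without siControl replicate 2 (-0.325) or siNR4A1 replicate 2 or 3 (-0.42 each). It was also lost with medians of detected probes equalized (-0.31). AP3B1 and AP3M1 had groups apart at -0.22 ± 0.11 and -0.20 ± 0.11 (SE) and did not pass. None of the 3 tested AP-4 genes passed, with AP4M1 at 0.07 ± 0.11 (SE, limma, adjusted p = 0.696), nor did the AP-1 partner SYNRG at 0.02 ± 0.11 (SE).

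**Figure D4:**
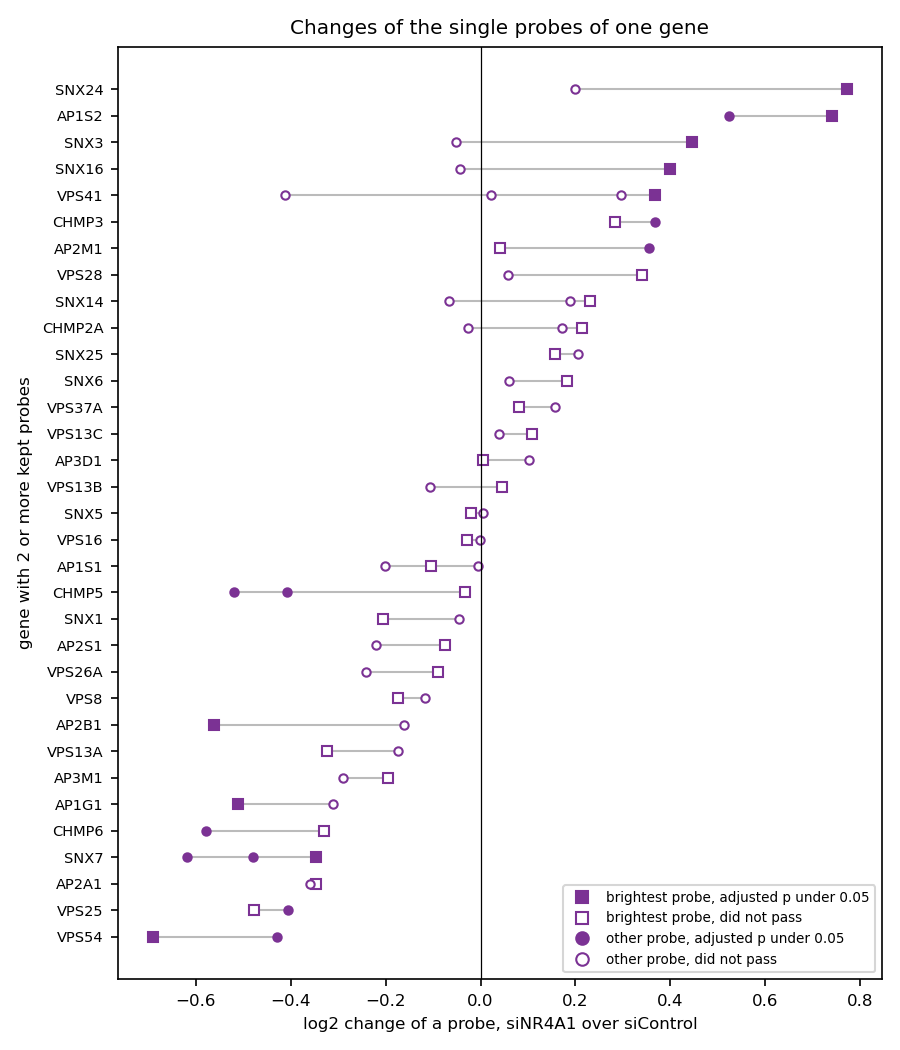
Log2 change (horizontal axis, siNR4A1 over siControl) of each kept probe of the 33 genes with 2 or more; squares are the brightest probe of a gene, circles the others, filled where the probe passed at an adjusted p under 0.05 over all 18202 named probes. The 3 SNX7 probes and both VPS54 and AP1S2 probes are filled and on one side of 0, while the 4 VPS41 probes run from -0.41 to 0.37.

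Repeat probes give a second reading of the same gene. Of 33 members with more than 1 kept probe, 26 or 78.8% had all of them on one side of 0, beside 64.9% of the 3519 such genes in the whole series. Among the 11 that changed by their brightest probe, 8 had all probes on one side, the exceptions being SNX3, SNX16 and VPS41. Probes on both sides of 0 with none passing were those of CHMP2A, of SNX14 (0.23, 0.19 and -0.07), of SNX5 (-0.02 and 0.005) and of VPS13B (0.05 and -0.11). In 3 of the 11, SNX7, VPS54 and AP1S2, every kept probe passed. Neither share of the 11 was counted over all called genes. These 11 were picked by the test of their brightest probe, so the 64.9% of all such genes is not a like comparison for them.

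SiControl replicate 3, the brightest array, was the siControl array nearest to siNR4A1 for 9 of the 14 genes that rose and 6 of the 11 that fell. The nearest array was not counted over all genes. Without siControl replicate 3, 13 members rose and 10 fell, with 5 of the 25 calls lost and others gained. The part of array brightness in the other values was not tested. The spread was smaller in siNR4A1 than in siControl for 20 of the 25 genes that changed and for 57 of the 92 tested. The share over all genes was not counted, so this is not shown to be a trait of the members. Over all genes tested the arrays correlated at 0.9944 to 0.9954 within siNR4A1 and at 0.9904 to 0.9928 within siControl.

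**Figure D5:**
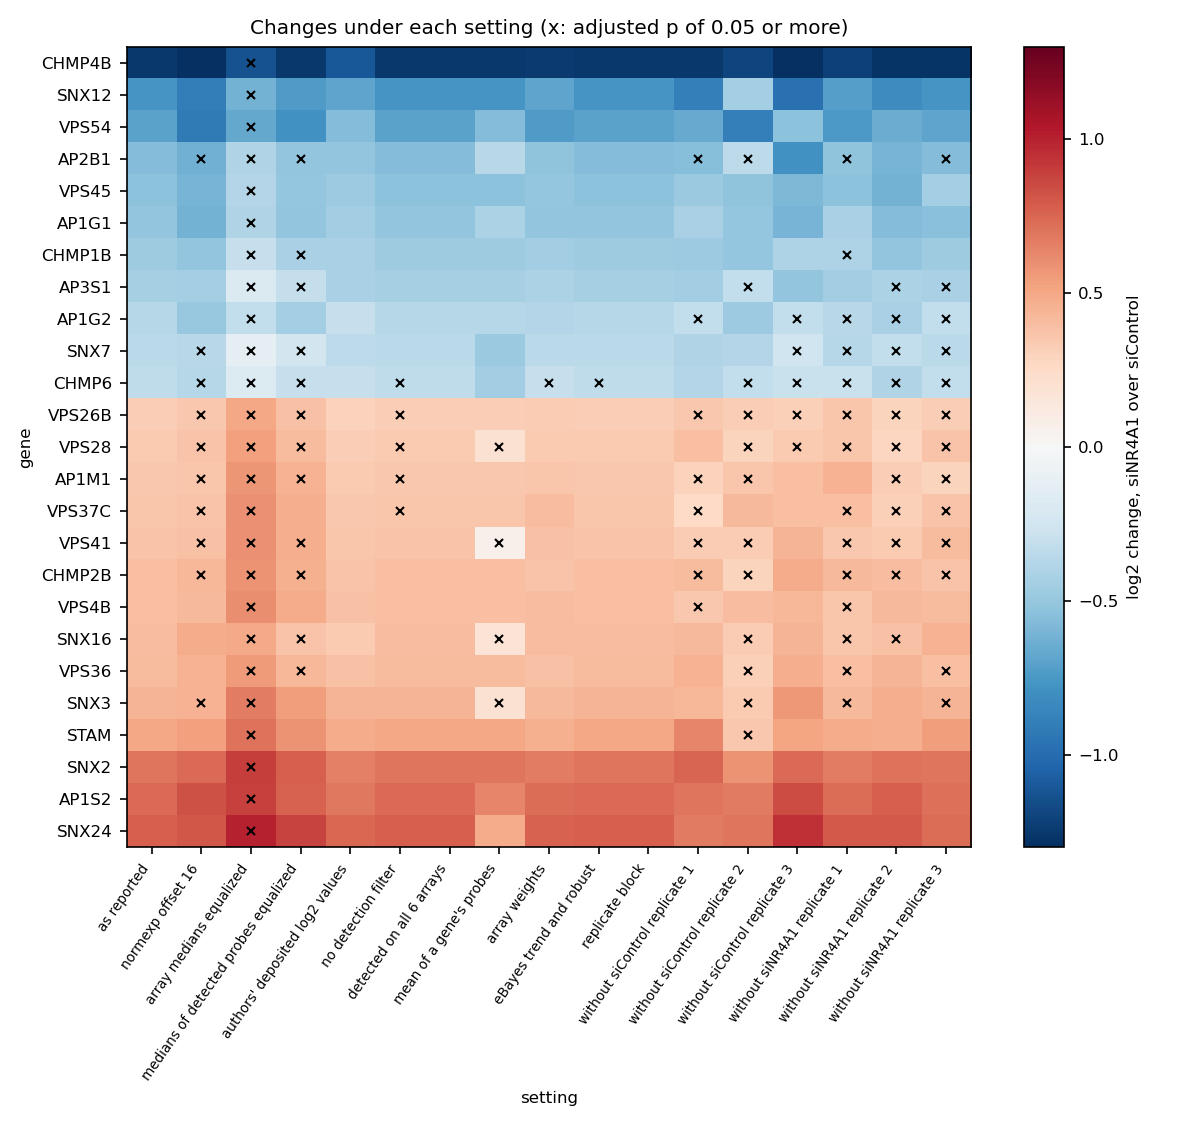
Log2 change (colour, siNR4A1 over siControl) of the 25 genes that changed (rows) under each setting (columns, the reported one first); a cross marks an adjusted p of 0.05 or more. CHMP4B, SNX12, VPS54, VPS45, AP1G1, SNX2, AP1S2 and SNX24 carry a cross under array medians equalized alone, and no gene changes sign.

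Genes that work with these members but fall outside the name rule were followed in 7 lists. Of 115 tested, 9 rose and 14 fell, or 20%, beside 19.5% of all genes tested, and the median log2 change was -0.04. With medians of detected probes equalized the split was 7 rising and 4 falling, beside 905 and 564 of all 13721 genes tested. Without single arrays the counts ran from 4 to 9 rising (4 without siNR4A1 replicate 3) and from 5 to 15 falling (5 without siNR4A1 replicate 3). Over all genes 756 rose and 734 fell without siNR4A1 replicate 3, beside 1481 and 1193 with all arrays.

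Clathrin and its further adaptors had 4 of 25 genes rising and 4 falling, or 16% each, beside 10.8% rising and 8.69% falling of all genes. EPN1, the membrane-bending endocytic adaptor epsin, was at 11.45, 11.33 and 11.46 in siNR4A1, against 12.12, 12.21 and 12.39 in siControl, and fell by 0.83 ± 0.11 (SE; limma, adjusted p = 8.40e-05). AFTPH, aftiphilin, a binding partner of AP-1 and clathrin, was at 9.37, 9.45 and 9.36 in siNR4A1, against 8.68, 8.60 and 8.89 in siControl, and rose by 0.67 ± 0.11 (SE; limma, adjusted p = 0.000594). NECAP2, an AP-1 and AP-2 accessory protein, fell by 0.53 ± 0.11 (SE; limma, adjusted p = 0.00243). CLTA, a clathrin light chain, rose by 0.46 ± 0.12 (SE; limma, adjusted p = 0.00989), a call lost without siNR4A1 replicate 3 (0.41). The calls of EPN1, AFTPH and NECAP2 held in all 6 leave-outs.

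Among WASH, retriever and CCC genes, which act beside retromer, 2 of 21 fell, or 9.52% beside 8.69% of all genes, and 0 rose, beside 10.8%; 3 had an unadjusted p under 0.05 in limma. COMMD2, a CCC subunit, was at 9.61, 9.54 and 9.68 in siNR4A1, against 10.19, 10.10 and 10.22 in siControl, and fell by 0.56 ± 0.11 (SE; limma, adjusted p = 0.00156). ANKRD27, a partner of retromer, fell by 0.52 ± 0.15 (SE; limma, adjusted p = 0.0214), a call lost without siControl replicate 2 (-0.34) or siNR4A1 replicate 2 (-0.41) or 3 (-0.53). Of 15 further ESCRT partners, 13.3% changed, beside 19.5% of all genes. SNF8 fell and 1 rose, the deubiquitinase STAMBP, by 0.345 ± 0.11 (SE; limma, adjusted p = 0.0365), a call lost in every leave-out except that of siControl replicate 1 (0.30 to 0.39) and with the mean of its probes (0.24). Of 10 endosomal phosphoinositide enzymes 1 fell, or 10% beside 8.69% of all genes. It was PIK3C3, the lipid kinase that marks early endosomes, which fell by 0.40 ± 0.12 (SE; limma, adjusted p = 0.0240), a call lost without siControl replicate 1 (-0.36) or 3 (-0.38) or siNR4A1 replicate 2 (-0.38) or 3 (-0.32).

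Of 17 endosomal tethers and SNAREs 3 fell, or 17.6% beside 8.69% of all genes, and 0 rose, beside 10.8%; 5 had an unadjusted p under 0.05 in limma. VAMP3, a SNARE of recycling endosomes, fell by 0.45 ± 0.11 (SE; limma, adjusted p = 0.0104), a call lost without siNR4A1 replicate 3 (-0.40). VIPAS39, a partner of VPS33B, fell by 0.40 ± 0.11 (SE), and the SNARE STX7 by 0.365 ± 0.11 (SE); both calls were lost in 4 or more of the 6 leave-outs, and that of STX7 with the mean of its probes (-0.26). Among 12 BLOC and AP-3 partners 1 rose and 2 fell, or 25% changed, beside 19.5% of all genes. BLOC1S4 rose by 0.54 ± 0.11 (SE; limma, adjusted p = 0.00272). BLOC1S1 fell by 0.54 ± 0.14 (SE), a call lost without siControl replicate 1 (-0.37) or siNR4A1 replicate 3 (-0.47), and HPS6 fell by 0.38 ± 0.12 (SE), a call lost without siControl replicate 1 or 3 or siNR4A1 replicate 1 or 2 (-0.40 to -0.32). Of 15 sorted cargo receptors 3 rose and 1 fell, or 26.7% changed, beside 19.5% of all genes. TGOLN2, which cycles between Golgi and plasma membrane, rose by 0.54 ± 0.11 (SE; limma, adjusted p = 0.00323). LAMP2, a lysosomal membrane protein, was at 11.09, 11.06 and 11.16 in siNR4A1, against 10.56, 10.55 and 10.59 in siControl, and rose by 0.54 ± 0.11 (SE; limma, adjusted p = 0.00197), although with the mean of its probes the value was 0.10 and did not pass. TMEM106B, a lysosomal membrane protein, rose by 0.40 ± 0.12 (SE), and SORT1, the sorting receptor sortilin, fell by 0.38 ± 0.11 (SE); both calls were lost in 4 or more leave-outs, and that of TMEM106B with the mean of its probes (0.33).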

How the data were processed

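Per the file headers, the authors deposited linear intensity values per probe that were not normalized, and a second table of log2 values, whose 6 columns equal quantile-normalized log2 signals to within 0.005. The submitters' processing notes name BeadStudio; chip type and build are not given in the sources used here. From the intensities, normexp background correction (offset 50), quantile normalization and log2 were computed with limma 3.58.1 in R 4.3.3; the files hold no detection p-values, so a probe counted as detected above the 95% point of its array's background (mode of the log2 signals, bandwidth 0.03, and the spread below it). A probe had to be detected on 3 or more arrays, and the brightest stood for a gene. The offset understates changes of dim genes. Groups were compared with lmFit and eBayes over 13721 genes, with Benjamini-Hochberg adjustment at 0.05, and single probes over 18202. Symbols were updated through the RefSeq gene table of GRCh38.p14, 4 of the 102 member symbols among them. Of these steps only the limma fit with its adjustment was tested on simulated data, which were built from the normalized and filtered values. The number of arrays, 3 per group, limits the precision.

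Members, roles and lists were chosen with earlier results of these data known. Every member past the threshold is named, and where no member of a role passed, the one with the smallest p. Genes whose probes disagree are named with each probe, and of genes outside the name rule up to 4 called genes per list, by size of change. The alternatives tried were another offset (16), 2 other normalizations, the authors' log2 values, other filters, the mean of probes, array weights, a trended prior, a replicate block and leaving out each array.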

Additional observations from a re-analysis of the deposited data

How the results depend on the processing

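Of 16 alternatives, 3 kept all 25 calls: the authors' deposited log2 values, probes detected on all 6 arrays, and the replicate block. With array medians equalized 0 members, 0 other endosomal genes and 0 of all genes rose or fell in limma, while 8, 6 and 1088 had an unadjusted p under 0.05. With medians of detected probes equalized 7 members rose and 6 fell, 4 other endosomal genes fell, and over all genes 905 rose and 564 fell. With an offset of 16, 7 members rose and 8 fell, beside 1093 and 936 of all 13721 genes, and 15 of the 25 calls held. No detection filter, the mean of probes, array weights and a trended prior lost 5, 4, 1 and 1 calls. The cause of these losses was not tested.

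Leaving out 1 array gave 5 to 13 members rising and 6 to 10 falling, 4 to 9 other endosomal genes rising and 5 to 15 falling, and over all genes 756 to 1629 rising and 734 to 1238 falling. Without siNR4A1 replicate 3 the counts over all genes were 756 and 734, and without siNR4A1 replicate 2, 920 rose.

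The labels do not say whether the replicate numbers pair the samples, and the values do not settle it. Deviations of same-numbered arrays correlated at 0.03, 0.08 and 0.17, and those of the other pairs at -0.13 to 0.06. Each siControl replicate correlated best with the siNR4A1 replicate of its number, while siNR4A1 replicate 1 correlated best with siControl replicate 2. With the replicate block all 25 calls held and further members passed. The share of all genes that passed under it is not given here, so no comparison is drawn. Genes near background, such as CHMP7 and the 9 not tested, are limited by their signal.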
